A study of Homo sapiens with 6 samples.

Results

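Interferon-stimulated genes are the antiviral genes that cells switch on after interferon binds its receptors. The 9 genes described here, ISG15, IFI6, IFIT1, IFIT3, IFITM1, MX1, OAS1, OAS3 and IRF9, were found by their symbols in a table of RNA sequencing counts. Of these, 8 had a line under their symbol among the 17990 genes of the table, and IFIT1 was not analysed here. The filter on low counts, an average of 20 counts or more per library, was passed by 6 of the 8 genes and by 11916 genes in all. ISG15, IFI6, IFITM1, MX1, OAS3 and IRF9 passed it. OAS1 and IFIT3 averaged 14.8 and 9.5 counts, so their levels are given with wide intervals and they enter no count of changed genes.

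The libraries were made from LNCaP, an androgen-responsive cell line of human prostate cancer. The cells were exposed to 10 nM dihydrotestosterone (DHT), a potent androgen, for 3, 6, 12, 24 or 48 h, or left untreated at 0 h. All cells, the untreated ones included, had first spent 3 days in medium with 2.5% charcoal-treated serum, which is depleted of steroid hormones, and came from stock cultures in 10% serum. There was 1 library per time and thus no replicate, so no test between times was possible. The only untreated library was that at 0 h, so DHT and time in culture cannot be told apart in any change below. A change of at least 2-fold is used below as a rule of size, and intervals (95%) cover counting error only. Levels are CPM, the counts of a gene scaled to the same total of listed counts in every library, and changes are differences of log2(CPM + 1) between a DHT library and the 0 h library, a scale that understates the change of low genes.

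Type I interferons bind a receptor of the chains IFNAR1 and IFNAR2, and the attached kinases JAK1 and TYK2 pass the signal on by phosphorylation. It ends in the factor ISGF3, of which STAT2 and IRF9 are subunits and which binds interferon-stimulated response elements in promoters. Many of these genes also keep a basal level in cells that see no added interferon. LNCaP cells have been described as poorly responsive to interferon for want of JAK1. No interferon was added in the labelled treatments.

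The promoters of the genes are shown because ISGF3 binds the interferon-stimulated response element in promoters. The core of the element, GAAA, 2 bases of any kind and GAAA, was searched on both strands in the 250 bases before each start in the RefSeq promoter table of build GRCh38.p14, in which all 9 genes were found, with 12 promoters. It was present in 8 of the 12 promoters and in 7 of the 9 genes, ISG15, IFI6, IFIT1, IFIT3, IFITM1, MX1 and OAS3, against 3.02% of all 35116 promoters of the table. The following stretches are on the gene's strand with the core, or in MX1 its reverse complement, in capitals, at chr1:1013364-1013419 (plus strand) for ISG15, chr1:27672256-27672368 (minus strand) for IFI6, chr11:313980-314029 (plus strand) for IFITM1, chr12:112938311-112938473 (plus strand) for OAS3 and chr21:41431834-41431883 (plus strand) for MX1.
ISG15: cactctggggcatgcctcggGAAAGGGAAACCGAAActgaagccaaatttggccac
IFI6: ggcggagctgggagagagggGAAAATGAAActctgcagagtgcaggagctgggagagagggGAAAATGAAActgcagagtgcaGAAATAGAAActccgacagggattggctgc
IFITM1: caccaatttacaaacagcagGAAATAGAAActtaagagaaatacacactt
OAS3: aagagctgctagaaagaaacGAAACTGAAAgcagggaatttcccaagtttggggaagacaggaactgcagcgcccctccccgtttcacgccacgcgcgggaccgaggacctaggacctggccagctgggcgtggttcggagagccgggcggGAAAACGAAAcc
MX1: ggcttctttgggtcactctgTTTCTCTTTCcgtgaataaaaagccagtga

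ISG15 held 2 overlapping copies of the core, IFI6 3 copies, OAS3 2 copies, and IFITM1 and MX1 1 copy each. The sequence shown for MX1 is from 1 of its 3 listed promoters, and the other 2 held no copy. The gamma-activated site TTCNNNGAA, the promoter element of the interferon gamma response, was in 4 of the 12 promoters, those of IFITM1, MX1, OAS1 and IRF9, against 6.57% of all promoters, and in MX1 it overlaps the core shown above. IRF9 and OAS1 held TTCNNNGAA and no response element core in the window, and the site of IRF9, at chr14:24161182-24161230 (plus strand), is in capitals in the next line.
IRF9: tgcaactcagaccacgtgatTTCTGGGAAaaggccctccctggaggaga
The androgen response element core, GNACA, 3 bases of any kind and TGTNC, was searched in the same way and was in none of the 12 promoters, against 0.327% of all promoters. A match is a string of letters and was not examined for binding.

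IFITM1, MX1, OAS3 and IFI6, 4 of the 6 genes past the filter, fell at least 2-fold after 24 h with DHT, and none of the 6 was at least 2-fold higher. In all genes at 24 h, 10.8% were at least 2-fold lower and 10.5% at least 2-fold higher, or 1287 lower and 1249 higher. That split depended on the scaling, with 1018 lower and 1581 higher by TMM factors and 982 lower and 1640 higher by median of ratios, under which IFI6 was no longer past 2-fold, at -0.88 and -0.86. At 48 h IFI6 alone was past 2-fold on the scale with 1 CPM added, lower, beside 7.33% of all genes lower and 15% higher. The plain ratios to 0 h at 48 h were near each other, 0.463 for IFI6, 0.461 for IFITM1, 0.487 for MX1 and 0.493 for OAS3. With a pseudocount of 0.1 CPM all 4 were past 2-fold at 48 h, beside 9.12% of all genes lower. At 3 h none of the 6 genes was past 2-fold in either direction, where 0.747% of all genes were higher and 0.864% lower (89 and 103 genes, or 109 and 67 by TMM factors). At 6 h there was again none, beside 15.3% of all genes higher and 3.01% lower. At 12 h there was none either on the scale with 1 CPM added, beside 11% higher and 7.99% lower.

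The median log2 change of the 6 genes was 0.26 at 3 h, -0.33 at 6 h, -0.47 at 12 h, -1.13 at 24 h and -0.87 at 48 h. Over all 11916 genes the median was -0.08, 0.08, 0.03, -0.09 and -0.06 at the same times. The summed level of the 8 genes was 117, 142, 92.9, 89.8, 71.4 and 84.8 CPM in the 6 libraries in the order of time, from 0 to 48 h. It was thus highest at 3 h and lowest at 24 h. In bulk RNA, fewer cells with these transcripts and less of them per cell cannot be told apart.

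**Figure D1:**
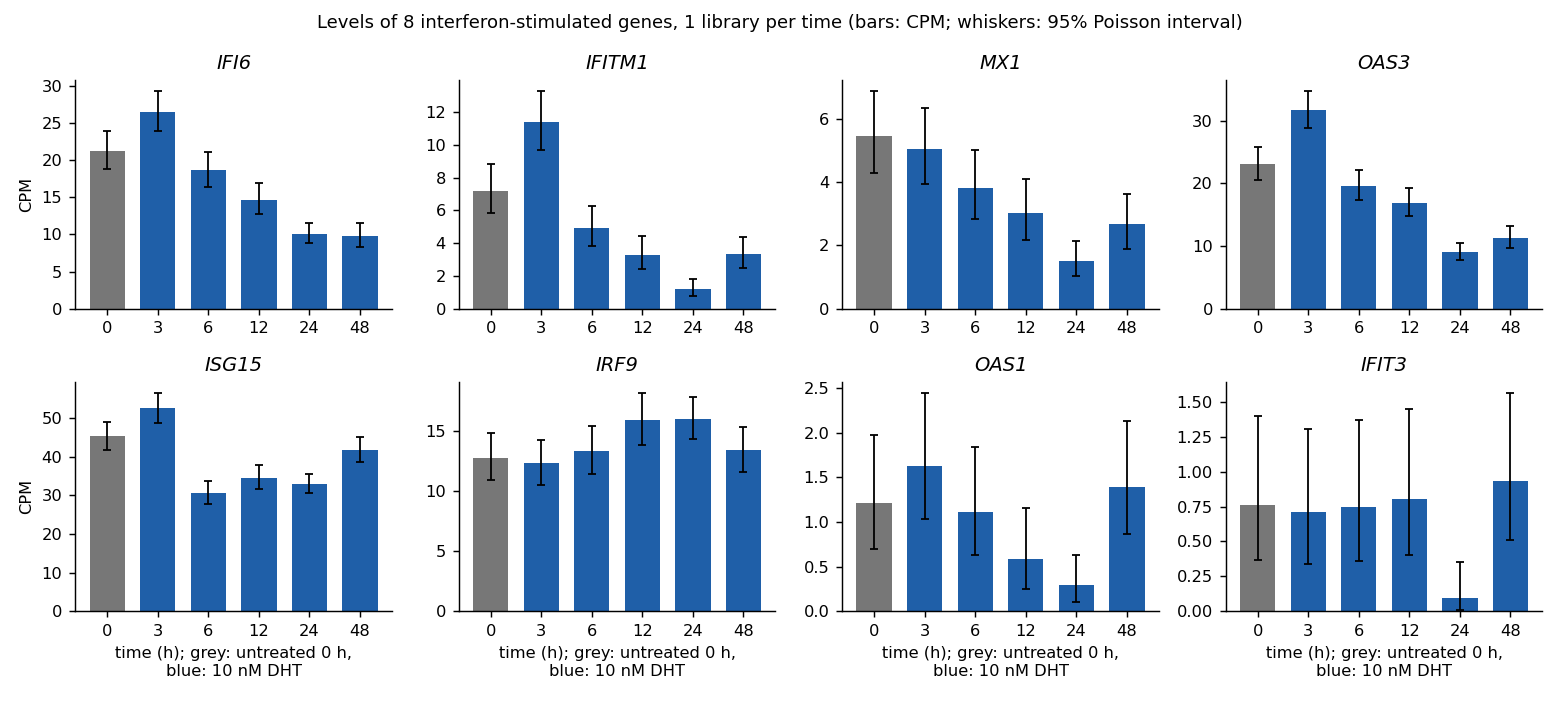
Level (CPM, each panel on its own scale starting at 0) of 8 interferon-stimulated genes in the untreated library at 0 h (grey) and in the libraries after 3, 6, 12, 24 and 48 h with 10 nM DHT (blue), with exact 95% Poisson intervals as whiskers. IFITM1, MX1 and OAS3 are lowest at 24 h, IFI6 is at 10.1 and 9.84 CPM at 24 and 48 h, and ISG15 and IRF9 stay within 2-fold of 0 h.

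IFITM1, a membrane protein that blocks the entry of enveloped viruses, changed most of the 6 genes. It had 95, 161, 66, 45, 25 and 50 counts in the order of time, or 7.21, 11.4, 4.92, 3.30, 1.21 and 3.32 CPM. The 3 h library was the highest and the 24 h library the lowest, 9.39-fold apart (interval 6.14 to 14.9). After 24 h with DHT the level was 0.168 times that at 0 h (0.104 to 0.264), a log2 change of -1.89. At 48 h the level was 0.461 times that at 0 h (0.321 to 0.656), with a log2 change of -0.92, just inside 2-fold on the scale with 1 CPM added. At 3 h the ratio to 0 h was 1.58 (1.22 to 2.06), also within 2-fold.

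IFITM1 belongs to a family of closely similar genes, and how reads shared with IFITM2 and IFITM3 were counted is not given in the sources used here. These relatives stayed within 2-fold at 24 h. IFITM2 had 27.1 CPM at 24 h and 34.3 CPM at 0 h, a log2 change of -0.33. IFITM3 had 50.7 CPM at 24 h and 70.1 CPM at 0 h, a log2 change of -0.46.

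MX1, a dynamin-like GTPase that traps viral nucleocapsids, had 72, 71, 51, 41, 31 and 40 counts in the order of time. Its levels were 5.46, 5.03, 3.80, 3.01, 1.51 and 2.66 CPM. The untreated library was the highest and the 24 h library the lowest, and the 3 h and 0 h intervals overlap. The level after 24 h with DHT was 0.276 times that at 0 h (0.175 to 0.425), a log2 change of -1.37. At 48 h the ratio was 0.487 (0.322 to 0.726) and the log2 change -0.82, inside the rule.

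OAS3 makes 2',5'-linked oligoadenylates, the second messenger that activates RNase L. It had 304, 448, 263, 230, 187 and 171 counts, or 23.1, 31.7, 19.6, 16.9, 9.08 and 11.4 CPM, in the order of time. The 3 h library stood above all others, and the 24 and 48 h libraries below all others. At 3 h the level was 1.38 times that at 0 h (1.19 to 1.60), within 2-fold. At 24 h it was 0.394 times that at 0 h (0.326 to 0.474), a log2 change of -1.26, and at 48 h 0.493 times (0.406 to 0.596), a log2 change of -0.96.

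OAS1, a smaller enzyme of the same kind, had 16, 23, 15, 8, 6 and 21 counts, or 1.21, 1.63, 1.12, 0.587, 0.291 and 1.40 CPM, in the order of time. The 12 and 24 h libraries were the lowest and the 48 h library was close to 0 h. The ratio at 24 h to 0 h was 0.240 (0.0769 to 0.646), and that at 48 h to 24 h was 4.79 (1.87 to 14.5). At these depths its differences at 3, 6, 12 and 48 h from 0 h lay within the counting intervals.

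IFI6, a small mitochondrial and endoplasmic reticulum protein with antiapoptotic and antiviral functions, had 280, 374, 250, 200, 208 and 148 counts. Its levels were 21.2, 26.5, 18.6, 14.7, 10.1 and 9.84 CPM in the order of time. It was highest at 3 h, at 1.25 times the 0 h level (1.07 to 1.46), and lowest at 24 and 48 h, whose intervals overlap. The ratio to 0 h was 0.476 (0.396 to 0.571) at 24 h and 0.463 (0.377 to 0.567) at 48 h. The log2 changes of -1.0 and -1.04 were at the edge of the 2-fold rule. The call at 24 h was lost under 6 of the 9 other ways of processing tried, with the highest value -0.60, and no alternative turned the direction.

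**Figure D2:**
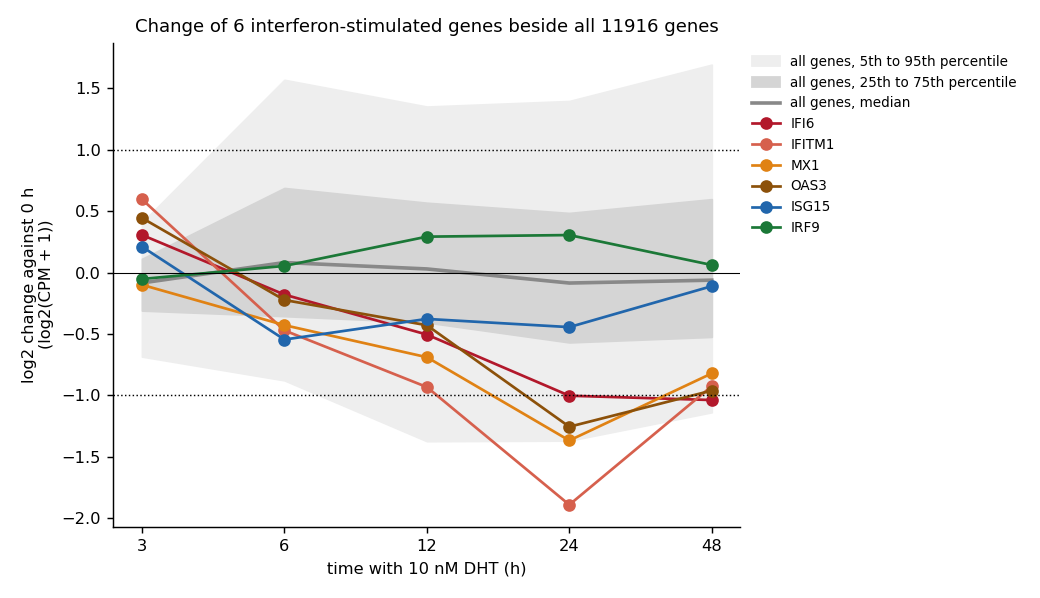
Difference in log2(CPM + 1) between each DHT library and the untreated 0 h library for 6 interferon-stimulated genes, over the median and spread of the 11916 genes past the filter on low counts (grey), with dotted lines at 2-fold. IFITM1, MX1, OAS3 and IFI6 are past the lower line at 24 h, from -1.89 to -1.0, while IRF9 is at 0.31 and ISG15 at -0.44.

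ISG15, a ubiquitin-like protein that is attached to other proteins and also secreted, did not change by 2-fold at any time. It had 597, 742, 412, 472, 680 and 630 counts, or 45.3, 52.6, 30.7, 34.6, 33.0 and 41.9 CPM, in the order of time. The 3 h library was the highest and the 6 h library the lowest, 1.71-fold apart (1.52 to 1.94). The level was 1.16 times that of 0 h (1.04 to 1.29) at 3 h, 0.729 times (0.652 to 0.815) at 24 h and 0.924 times (0.825 to 1.04) at 48 h. The interval at 48 h spans 1, and those at 3 and 24 h do not.

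IRF9, the DNA-binding subunit of ISGF3 and itself induced by interferon, was not among the genes that fell. It had 169, 174, 179, 217, 331 and 202 counts, or 12.8, 12.3, 13.3, 15.9, 16.1 and 13.4 CPM, in the order of time. The 12 and 24 h libraries were the highest, and all 6 lay within 1.30-fold. The level at 24 h was 1.25 times that at 0 h (1.04 to 1.52), a log2 change of 0.31.

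IFIT3, which binds its relatives IFIT1 and IFIT2 in complexes on viral RNA, was the least abundant. It had 10, 10, 10, 11, 2 and 14 counts, or 0.759, 0.709, 0.746, 0.807, 0.0971 and 0.930 CPM, in the order of time. The 24 h library was again the low one, with 2 counts. The ratio at 24 h to 0 h was 0.128 (0.0136 to 0.601), and those at 3, 6, 12 and 48 h had intervals that span 1.

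Per length of transcript, the untreated cells held most ISG15, at 71.1 CPM per kb, followed by IFI6 at 25.3 CPM per kb. IFITM1 at 8.43 CPM per kb (6.82 to 10.3) and IRF9 at 6.98 CPM per kb (5.96 to 8.11) did not differ beyond counting error. Below them came OAS3 at 3.43, MX1 at 1.92, OAS1 at 0.721 and IFIT3 at 0.304 CPM per kb, and the intervals of OAS1 (0.412 to 1.17) and IFIT3 (0.146 to 0.559) overlap. Transcript lengths are from GENCODE v29.

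The 6 genes past the filter did not share 1 profile. Across the 6 libraries, Pearson's r of log2(CPM + 1) between a gene and the mean of the other 5 genes was 0.98 for OAS3, 0.97 for IFITM1, 0.94 for MX1 and 0.93 for IFI6. It was 0.62 for ISG15 and -0.81 for IRF9. These are descriptions over 6 points that share libraries. ISG15, IFI6, IFITM1 and OAS3 were highest in the 3 h library, as were 20.1% of all genes, and IFITM1, MX1 and OAS3 were lowest in the 24 h library, as were 21.6% of all genes. IFI6, IFITM1 and OAS3 were highest at 3 h and lowest at 24 or 48 h, a pattern of 15.6% of all genes.

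Between neighbouring times, IFITM1 alone passed 2-fold in any step. It fell at 6 h against 3 h, with a ratio of 0.431 (0.319 to 0.578) and a log2 change of -1.07, in a step with 1.4% of all genes lower and 20.9% higher. Pearson's r of that step with GC content across 11140 genes was -0.77, and with the trend removed the change was -0.97, no longer past 2-fold. At 24 h against 12 h its ratio was 0.368 (0.216 to 0.613), a log2 change of -0.96 and so within 2-fold on the scale with 1 CPM added. None of the 6 genes passed the rule there, beside 1.96% of all genes lower and 4.91% higher. None passed it at 12 h against 6 h either, beside 5.5% lower and 0.453% higher.

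From 24 to 48 h IFITM1, MX1 and OAS3 were higher again, within the rule of size, and IFI6 was not. The ratio of 48 h to 24 h was 2.74 (1.66 to 4.62) for IFITM1, 1.77 (1.08 to 2.92) for MX1, 1.25 (1.01 to 1.55) for OAS3 and 1.27 (1.14 to 1.41) for ISG15. It was 0.974 (0.783 to 1.21) for IFI6 and 0.835 (0.697 to 0.998) for IRF9. The log2 change of IFITM1 in this step was 0.97, or 1.01 and so past 2-fold with the GC trend removed, and without that correction none of the 6 genes was past 2-fold, beside 1.53% of all genes higher and 0.185% lower.

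The base composition of transcripts moved with the changes of all genes, so values with the trend removed are given as well. Its part in the changes of the interferon-stimulated genes was not tested. Across 11140 genes with a known GC content, Pearson's r between the log2 change and the GC content was 0.23 at 3 h, -0.74 at 6 h, -0.43 at 12 h, -0.51 at 24 h and -0.56 at 48 h. GC content was 64.2% for ISG15, 56.1% for IFI6, 55.4% for IRF9, 54.3% for OAS3, 52.5% for IFITM1, 52.2% for MX1, 51.4% for OAS1 and 44.3% for IFIT3. With the trend removed, the log2 change at 24 h was -1.64 for IFITM1 and -1.13 for MX1, still past 2-fold. It was -0.93 for OAS3 and -0.60 for IFI6, no longer past it. ISG15 turned to 0.20, and IRF9 was at 0.67.

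With the trend removed, the median of the 6 genes was 0.28 at 3 h, -0.00022 at 6 h, -0.27 at 12 h, -0.77 at 24 h and -0.57 at 48 h. None of the 6 genes was then past 2-fold at 48 h. ISG15, the gene with the highest GC content, was at 0.03, 0.08, 0.20 and 0.39 at 6, 12, 24 and 48 h after the correction, in place of -0.55, -0.38, -0.44 and -0.11.

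**Figure D3:**
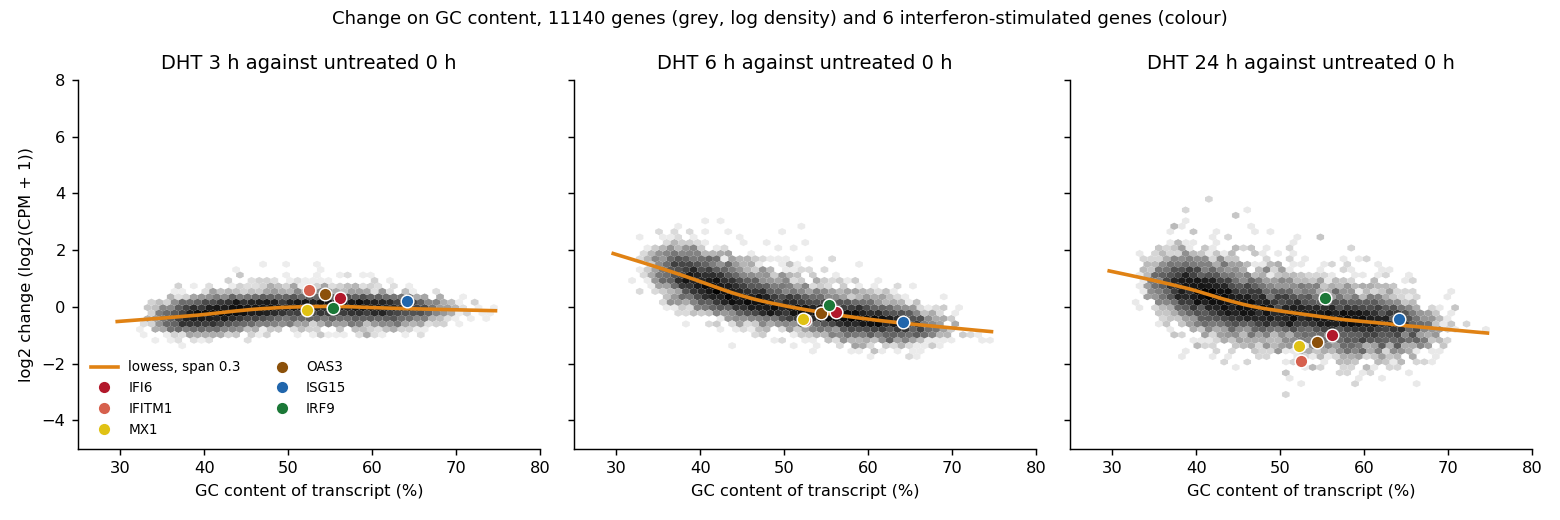
Difference in log2(CPM + 1) against the untreated 0 h library plotted on the GC content of the transcript, for 11140 genes (grey, log density, with fields of 1 gene in white) at 3, 6 and 24 h with DHT, with a lowess curve of span 0.3 (orange) and 6 interferon-stimulated genes in colour. At 6 h ISG15, IFI6 and OAS3 lie near the falling curve, IFITM1 and MX1 lie below it, at -0.37 and -0.35 from it with points that nearly coincide, and IRF9 is 0.30 above it, and at 24 h IFITM1, MX1, OAS3 and IFI6 lie below it and IRF9 above it.

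Other genes induced by type I interferon were mixed. The list held 62 such genes, of which 61 had a line and 39 passed the filter. At 24 h 5 of the 39 were lower and 2 higher, and the median log2 change was -0.31. At 48 h 4 were lower and 2 higher, with a median of -0.14. At 3 h none was past 2-fold, beside 0.747% of all genes higher and 0.864% lower. At 6 h 5 were higher and 1 lower, beside 15.3% of all genes higher and 3.01% lower. At 12 h 2 were higher and 6 lower, beside 11% higher and 7.99% lower. The share lower at 24 h, 5 of 39, stands beside the 10.8% of all genes given above, and the share higher, 2 of 39, beside 10.5%. The counts at 48 h stand beside 7.33% of all genes lower and 15% higher.

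LGALS3BP, a secreted glycoprotein that binds galectins, fell most at 24 h, to 19.9 CPM against 104 CPM at 0 h, a log2 change of -2.33. UBE2L6, the conjugating enzyme that transfers ISG15 to its targets, fell to 2.09 CPM against 9.79 CPM at 0 h, a log2 change of -1.80. UBA7, the enzyme that activates ISG15 for conjugation, fell to 2.91 CPM against 8.50 CPM at 0 h, a log2 change of -1.28. At 48 h UBA7 and UBE2L6 were at -0.40 and -0.97. USP18, which removes ISG15 from proteins, stayed within 2-fold at 24 h, at -0.33. HERC5, an ISG15 ligase below the filter on low counts, was at 0.45 at 24 h and 1.35 at 48 h, from 4 counts at 0 h. PARP10, an ADP-ribosyltransferase, and LY6E, a surface protein that restricts coronavirus entry, had log2 changes of -1.41 and -1.29. The fall of LGALS3BP and UBE2L6 kept past 2-fold with the GC trend removed, at -1.80 and -1.37, and PARP10, LY6E and UBA7 did not, at -0.70, -0.66 and -0.81. After that correction 4 of the 38 genes of the list with a GC value were lower, beside 6.59% of all genes. The other 2 were IFIT5 at -1.12 and IFIT2 at -1.08, which were at -0.36 and -0.66 without it.

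TRIM5, a restriction factor that recognises retroviral capsids, rose most at 24 h, to 67.0 CPM against 19.0 CPM at 0 h, a log2 change of 1.77, and was at 1.56 at 48 h. ISG20, an exonuclease, rose by 1.09, to 61.9 CPM against 28.5 CPM at 0 h. EIF2AK2, the kinase PKR that halts translation on double-stranded RNA, and PNPT1, a mitochondrial RNA-degrading enzyme, had changes of 0.76 each at 24 h and of 0.91 and 0.96 at 48 h. With the GC trend removed EIF2AK2 and PNPT1 were at 0.23 and 0.26 at 24 h, and at 0.17 and 0.28 at 48 h. At 48 h IFI44 was at 1.33, from a level of 4.19 CPM against 1.06 CPM at 0 h, and at 0.41 with the GC trend removed. LGALS3BP at -1.61, PARP10 at -1.07, LY6E at -1.03 and TRIM25, the ligase that activates RIG-I, at -1.01 were the 4 lower genes at 48 h, and with the GC trend removed these were at -1.14, -0.55, -0.53 and -0.77.

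Genes of chromosome 4 and of distal chromosome 15 were low in the 12 h library, in which the rest of the genome held 99.4% of the counts, against 95.6 to 96.6% in the other 5 libraries. None of the 9 interferon-stimulated genes lies there, but of the 39 other genes 5 do, HERC6, DDX60 and LAP3 on chromosome 4 and PML and ISG20 on chromosome 15. Without these 5 genes, 2 were higher and 2 lower at 12 h, and 1 was higher and 5 lower at 24 h, of 34. Of all 11378 genes outside these regions, 1315 were higher and 468 lower at 12 h, and 1161 higher and 1232 lower at 24 h.

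**Figure D4:**
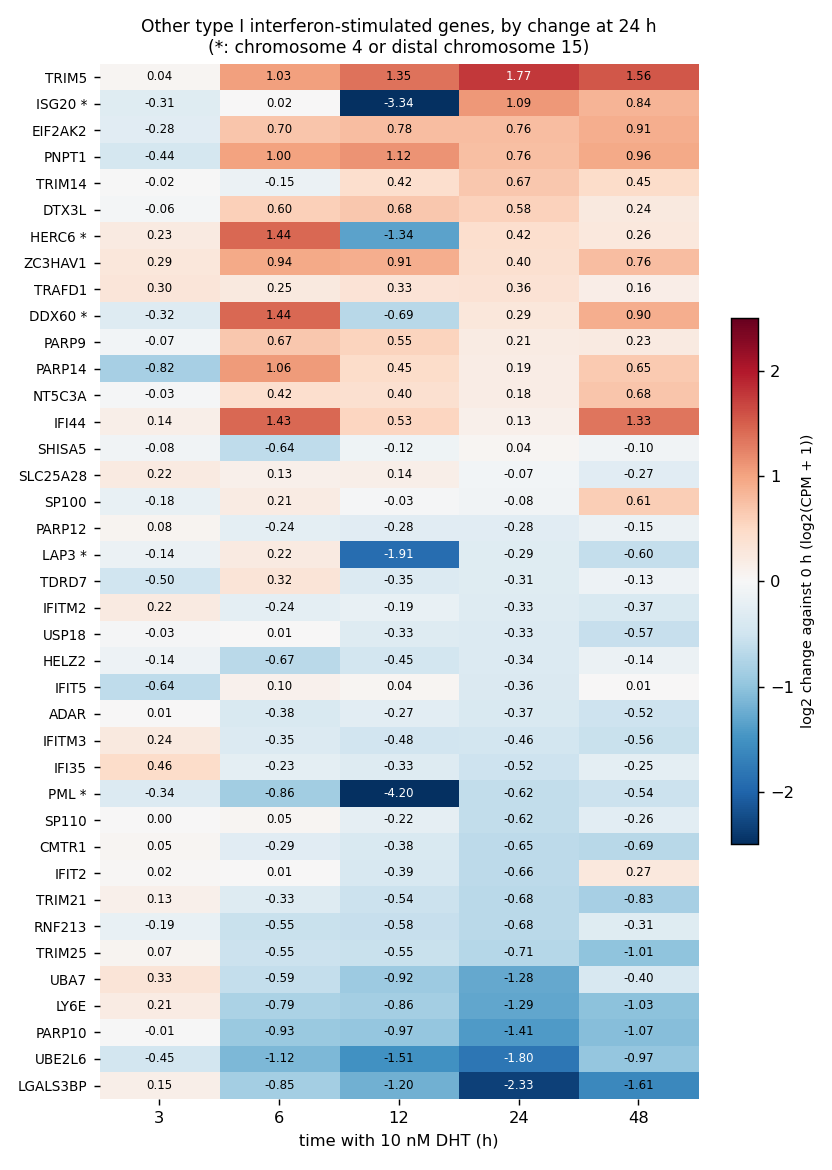
Difference in log2(CPM + 1) between each DHT library and the untreated 0 h library for 39 other genes induced by type I interferon, sorted by the value at 24 h (red higher, blue lower; colour saturates at the ends of the bar, values are printed). TRIM5 heads the list at 1.77 and LGALS3BP closes it at -2.33, and the starred genes lie in regions that were low in the 12 h library.

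Genes tied to interferon gamma were also mixed. Of 24 on the list 21 had a line and 9 passed the filter, of which 4 were lower and 1 higher at 24 h, with a median log2 change of -0.61, and 2 lower and 1 higher at 48 h, with a median of -0.44. All genes gave 10.8% lower and 10.5% higher at 24 h, and 7.33% lower and 15% higher at 48 h. With the GC trend removed 3 were lower and 1 higher at 24 h, RARRES3 being at -0.75, and 1 was lower and 1 higher at 48 h. IRF1, the first-line transcription factor of the response, had 14.6, 7.01, 4.25, 4.04, 3.89 and 4.05 CPM in the order of time, and its log2 change was -0.96 at 3 h and -1.57, -1.63, -1.67 and -1.62 at the later times. On this scale IRF1 was thus past 2-fold from 6 h, whereas the 4 interferon-stimulated genes that fell first passed it at 24 h. For IRF1 and IFITM1 these times depended on the 1 CPM added. The plain levels of IRF1, 7.01 CPM at 3 h and 14.6 CPM at 0 h, were already more than 2-fold apart. With a pseudocount of 0.1 CPM, 1 gene of this list was lower at 3 h, in place of 0. The ratio of IFITM1 at 12 h to 0 h was 0.458 (0.314 to 0.660), a log2 change of -1.10 with a pseudocount of 0.1 CPM. NLRC5, the activator of class I antigen presentation genes, fell to 0.923 CPM at 24 h against 6.68 CPM at 0 h, a log2 change of -2.00, and was at 4.65 CPM at 48 h. BATF2, a leucine zipper factor, and RARRES3, a retinoid-induced phospholipase, were at -1.56 and -1.03 at 24 h.

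WARS1, the tryptophanyl-tRNA synthetase, rose by 1.02 at 24 h, to 264 CPM against 129 CPM at 0 h, and was at 0.28 at 48 h. APOL3, an apolipoprotein L, was at 0.44 at 24 h and rose by 1.16 at 48 h. The remaining genes of this list named by rule, PSMB10 at -0.54, APOL6 at -0.34 and APOL2 at -0.61, stayed within 2-fold at 24 h.

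Transcripts of the interferons themselves were at or near 0. Of 21 interferon genes 18 had no count in any library, among them IFNB1 and IFNG, and the highest count of the rest was 2, for IFNL1. The limit that a count of 0 sets is 3 counts, which is 0.146 CPM in the deepest library and 0.228 CPM in the shallowest. Of the receptor chains, IFNAR1 rose by 1.02 at 24 h, to 90.8 CPM against 44.2 CPM at 0 h, and IFNGR1 by 1.19, to 25.3 CPM against 10.5 CPM. IFNAR2, IFNGR2 and IL10RB were at -0.09, -0.50 and 0.31, and IFNLR1 had at most 7 counts. With the GC trend removed the changes of IFNAR1 and IFNGR1 were 0.67 each.

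The kinases and factors below the receptors were present throughout. JAK1 had 148, 144, 284, 197, 280 and 242 counts, or 11.2, 10.2, 21.2, 14.5, 13.6 and 16.1 CPM, in the order of time, so its transcript was detected in every library. Per length it stood at 2.23 CPM per kb at 0 h, beside 2.14 for JAK2 and 17.4 for TYK2. Of the 7 genes described here JAK2 alone was at least 2-fold higher at any time, by 1.69 at 6 h, 1.48 at 12 h and 1.06 at 48 h, and these changes were 0.72 at 6 h and 0.16 at 48 h with the GC trend removed. STAT2, a partner of IRF9 in ISGF3, was at -0.25 at 24 h, and had 87.4 CPM at 24 h and 104 CPM at 0 h. TYK2, STAT3, IRF2 and IRF7 were at -0.08, 0.07, 0.34 and -0.24, and the lower value of IRF2 at 12 h, -2.61, is that of a chromosome 4 gene.

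Among 12 inhibitors of the pathway, 10 passed the filter, and 1 was higher and 1 lower at 24 h. These counts are near the shares of all genes at 24 h, 10.5% higher and 10.8% lower. PIAS1, a SUMO ligase, was the higher one at 1.64, or 1.15 with the GC trend removed, with 71.3 CPM against 22.2 CPM at 0 h. It lies on distal chromosome 15, and its value at 12 h was -1.53. CISH, a member of the family of suppressors of cytokine signalling, was the lower one at -1.26, or -0.75 and within 2-fold with the GC trend removed. SOCS1 and SOCS3, the main inhibitors of that family in interferon signalling, had at most 10 counts. IRF2BP2, a corepressor that binds IRF2, had 54.8 CPM at 3 h against 122 CPM at 0 h, a log2 change of -1.14, and was at -0.98 at 24 h. PIAS3, PIAS4, PTPN1, PTPN2, PTPN6, PTPN11 and IRF2BP1 stayed between -0.62 and 0.82 at 24 h. At 3 h 2 of the 10 inhibitors were lower, IRF2BP2 and CISH, the latter at -1.05, beside 0.864% of all genes lower. At 6 h 3 were lower, CISH among them at -1.38, and 1 was higher, beside 3.01% lower and 15.3% higher. With the GC trend removed 2 were lower at 3 h and 1 at 6 h, beside 0.431% and 1.56% of all genes.

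Of 15 genes that sense nucleic acids and pass the signal on to interferon genes, 11 passed the filter. At 24 h 3 were lower and 1 was higher, and at 48 h 2 were lower and 2 higher, beside the shares of all genes given for the interferon gamma list. With the GC trend removed 2 were lower and 1 higher at 24 h, and 1 was lower and 1 higher at 48 h. STING1, the adaptor for cyclic dinucleotides, had 89, 82, 31, 20, 13 and 17 counts, or 6.75, 5.81, 2.31, 1.47, 0.631 and 1.13 CPM, in the order of time. Its log2 change was -1.23, -1.65, -2.25 and -1.86 from 6 to 48 h, and -1.82 at 24 h with the GC trend removed. TBK1, the kinase that STING1 and MAVS engage, rose by 1.99 at 24 h and 2.74 at 48 h, to 36.6 and 62.5 CPM against 8.50 CPM at 0 h. With the GC trend removed the changes of TBK1 were 1.36 and 1.84. IKBKE, a related kinase, and IRF5, a factor that drives cytokine genes, fell by 1.54 and 1.38 at 24 h, and were at -1.06 and -0.93 with the GC trend removed.

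IFIH1, the sensor MDA5, rose by 1.25 at 48 h, to 10.97 CPM against 4.02 CPM at 0 h, and was at 0.89 with the GC trend removed. DHX58, a related sensor, had 0.777 CPM at 24 h against 2.50 CPM at 0 h, a ratio of 0.310 (0.160 to 0.580). Its log2 change of -0.98 was within 2-fold only on the scale with 1 CPM added, and was -0.51 with the GC trend removed. The other sensors and adaptors, RIGI, TICAM1, MAVS, IRF3 and TRAF3, stayed between -0.60 and -0.13 at 24 h.

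**Figure D5:**
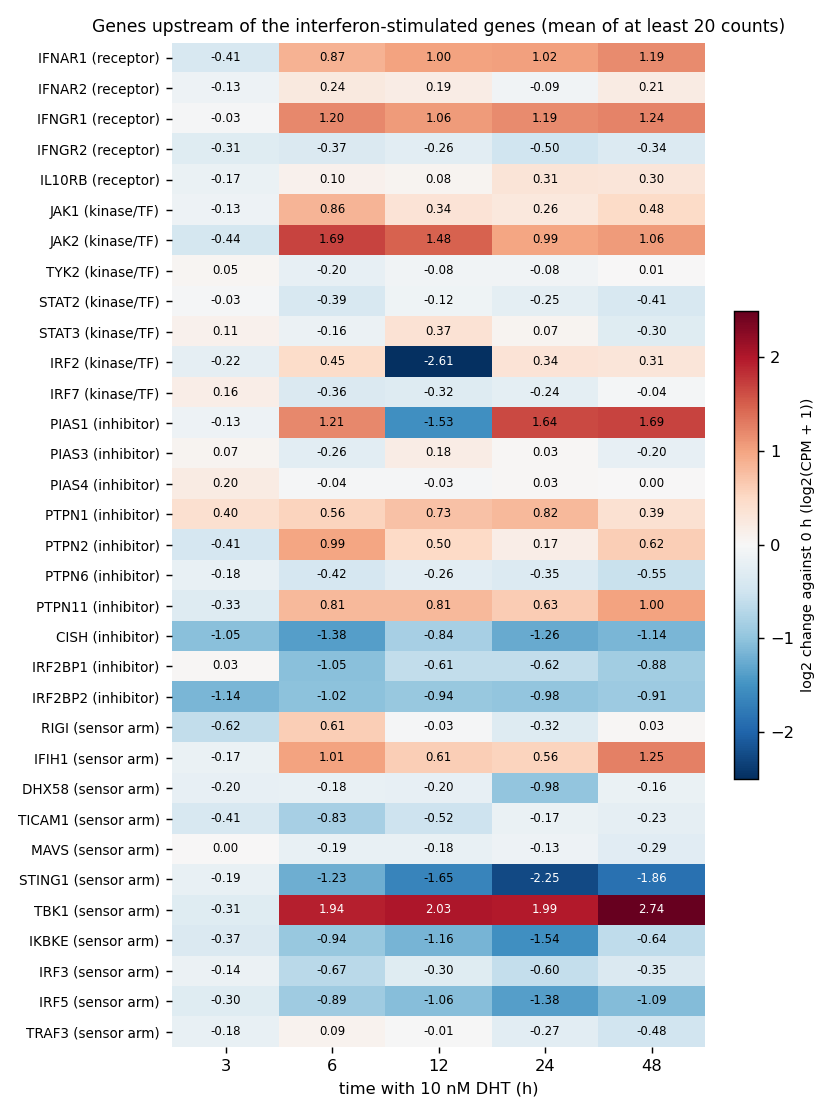
Difference in log2(CPM + 1) between each DHT library and the untreated 0 h library for receptor chains, kinases and factors, inhibitors and sensors of interferon signalling past the filter on low counts (red higher, blue lower; values are printed). TBK1 is highest at 2.74 at 48 h, STING1 is lowest at 24 h at -2.25, and the low 12 h values of IRF2 (-2.61) and PIAS1 (-1.53) are of genes on chromosome 4 and distal chromosome 15.

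The library totals were 13179917 to 20587956 counts, the largest at 24 h, and 15079 to 15589 genes had at least 1 count. All 8 luminal prostate markers, KLK3 among them, were detected, and their sum was 23431 CPM at 48 h and 8520 CPM at 0 h. KLK3 and TMPRSS2 were higher at 24 h, by 1.08 and 3.47, while FOLH1 fell by 1.84 and HOXB13 was at -0.94. The 4 basal markers had at most 9 counts each. Of 14 leukocyte markers, 13 had at most 9 counts, PTPRC at most 1, and CSF1R had 8 to 43. Of 8 fibroblast markers, COL1A1 made up most of a sum of 70.3, 72.6, 44.3, 48.6, 32.5 and 37.6 CPM in the order of time, while COL1A2 was at 0 in 5 of 6 libraries and DCN had at most 5 counts. COL3A1 had 57, 75, 29, 28, 15 and 11 counts in the order of time, with a log2 change of -1.62 at 24 h (-1.39 with the GC trend removed), and PDGFRB had 36, 34, 18, 6, 8 and 7 counts. The summed level was lowest at 24 h, as were IFITM1, MX1 and OAS3, and its part in their change was not tested.

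The genes whose profile over the 6 libraries was most like the mean of the 6 interferon-stimulated genes were NRGN, TAGLN2, PLK1, ATXN7L2 and C10orf54. Their Pearson's r was 0.9996, 0.99, 0.99, 0.99 and 0.99 over 6 libraries, the highest of 5666 genes searched. PLK1, a mitotic kinase, had 41.7, 72.1, 30.1, 25.4, 9.03 and 16.4 CPM in the order of time, and TAGLN2, an actin-binding protein, had 167, 204, 118, 111, 71.9 and 87.5 CPM. Both were highest at 3 h and lowest at 24 h. These values are a description over 6 points that share libraries.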

How the data were processed

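RNA was sequenced in 6 libraries of LNCaP cells, 1 per time, and groups came from the labels. Total RNA, extracted with ISOGEN per the labels' protocols, was sequenced on an Illumina GAIIx. Per the submitters' processing notes, reads were placed on hg19. Which aligner and counting tool were used, and whether strand was, were not given in the sources used here, so reads of a gene and of an antisense partner cannot be told apart. Per the file headers, the deposited table held tags, which were whole-number counts per RefSeq transcript, and ppm, the same counts as RPM scaled by the authors. The listed counts made up 86.9 to 89.5% of the RPM denominator. After removal of 50 repeats from 18051 lines, counts of 18001 transcripts were summed by symbol to 17990 genes, of which 610 transcripts without a resolved symbol stayed unnamed. Of the 190 list genes 14 were matched by accession under an older symbol, and 5 are not analysed here.

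Counts were scaled to CPM over the sum of all listed transcripts, and a change is a difference in log2(CPM + 1), with a pseudocount of 1. Genes had to average 20 counts or more per library. The single library of each group allowed no test, and at least 2-fold was a rule of size. Intervals of levels are exact Poisson and those of ratios exact conditional binomial, at 95%, and the floor is 3 counts. They cover counting error only. GC content and lengths came from GENCODE v29 for 11140 (93.5%) of the filtered genes, the GC trend was a lowess curve of span 0.3, and promoters came from RefSeq on GRCh38.p14. The software was Python 3.11.15 with statsmodels 0.14.6, and R 4.3.3 with edgeR 4.0.16 for TMM factors. The script was tested on simulated data. Alternatives varied the scaling, pseudocount, filter and GC trend.

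The members and lists were chosen with earlier results of these data known. The rule for named genes took all members, any gene of the ligand, receptor, kinase and factor, inhibitor and sensor lists, the 4 largest increases and decreases at 24 and 48 h of each of the other lists, and the 5 genes most like the members' mean profile. UBA7, HERC5, USP18, IFITM2 and IFITM3, and the genes in the low regions at 12 h, were named after their values were seen. Some genes of the pathway are not reported here.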

Additional observations from a re-analysis of the deposited data

Results flagged for a closer look

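The changes of 4 genes had opposite signs at 2 times against the same 0 h library, which both changes share. The log2 change of IFITM1 was 0.60 at 3 h and -1.89 at 24 h. OAS3 was at 0.44 at 3 h and -1.26 at 24 h. IFI6 was at 0.31 at 3 h and -1.04 at 48 h. ISG15 was at 0.21 at 3 h and -0.55 at 6 h. With the GC trend removed ISG15 was at 0.27 at 3 h and 0.03 at 6 h, so its signs were no longer opposite. With 1 library per time, the difference between the times was not tested.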

How the results depend on the processing

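The results for the interferon-stimulated genes and the counts of all lists were recomputed under 9 alternatives where they apply. No paired analysis was possible because each group had 1 library, and for the same reason no replicate could be left out. IFI6, IFITM1, MX1 and OAS3 kept a negative change at 24 and 48 h under all alternatives run for them. The number of the interferon-stimulated genes at least 2-fold lower at 24 h (4 of 6) was 0 with a pseudocount of 5 CPM, where 5.80% of all genes were lower. With a mean of at least 100 counts, which IFITM1 and MX1 did not reach, it was 2 of 4, where 8.49% of all genes were lower. With the GC trend removed it was 2 of 6, where 6.59% of all genes were lower. At 48 h (1 of 6) it was 0 with median of ratios scaling, TMM scaling, a pseudocount of 5 CPM and the GC trend removed, and 4 with a pseudocount of 0.1 CPM. At 12 h it was 1 with a pseudocount of 0.1 CPM. Their median at 6 h was -0.00022 with the GC trend removed. At 24 h the median was -0.74 with a pseudocount of 5 CPM, -0.72 with at least 100 counts and -0.77 with the GC trend removed. At 48 h it was -0.50 with a pseudocount of 5 CPM, -0.47 without a filter, -0.54 with at least 100 counts and -0.57 with the GC trend removed. The other type I genes counted were 39, but 32 with at least 100 counts, 61 without a filter and 38 with the GC trend removed. Of these genes, the number higher at 6 h (5) was 3 with median of ratios, with TMM and with at least 100 counts, and 1 with a pseudocount of 5 CPM and with the GC trend removed. The number lower at 6 h (1) was 2 with median of ratios and 0 with a pseudocount of 5 CPM and with at least 100 counts. The number higher at 12 h (2) was 1 with a pseudocount of 5 CPM and 0 with the GC trend removed. At 24 h the number higher (2) was 1 with a pseudocount of 5 CPM, and the number lower (5) was 8 without a filter and 3 with at least 100 counts. At 48 h the number higher (2) was 4 with a pseudocount of 0.1 CPM and without a filter, and 1 with a pseudocount of 5 CPM and with at least 100 counts. The number lower at 48 h (4) was 1 with median of ratios and with a pseudocount of 5 CPM, and 2 with TMM and with the GC trend removed. Over the alternatives at 24 h, the interferon gamma list had 0 to 4 genes lower (4), receptors 0 to 2 higher (2), kinases and factors 0 to 1 higher (0), inhibitors 0 to 1 lower (1) and sensors 2 to 4 lower (3). At 48 h the ranges were 0 to 3 lower (2), 0 to 2 higher (2), 0 to 1 higher (1), 0 to 1 lower (1) and 0 to 2 lower (2) in the same order of lists. The pseudocount and the filter act by construction on low genes, and for the other settings the cause was not tested.

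The scaling moved the median of all genes at 24 h from -0.09 to 0.06 with median of ratios and 0.04 with TMM, and the genes past 2-fold were 1640 higher and 982 lower, and 1581 higher and 1018 lower, in place of 1249 higher and 1287 lower. At 3 h TMM gave 109 higher and 67 lower in place of 89 and 103. Depth limits OAS1 and IFIT3 most, whose 24 h levels rest on 6 and 2 counts.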

Other observations

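The response element core was also set beside the changes of all genes. Of the tested genes with a promoter in the table, 287 held it and 9216 did not. At 24 h 9.06% of the genes with the core were at least 2-fold lower and 11.8% higher, and of those without it 9.85% were lower and 10.9% higher. Their median log2 changes at 24 h were -0.04 with the core and -0.06 without it. At 6 h 21.6% of the genes with the core were higher and 1.74% lower, against 15.9% and 2.52% without it. At 12 h 14.6% were higher and 8.36% lower, against 11.4% and 7.76%. At 48 h 16.4% were higher and 6.27% lower, against 15.4% and 6.79%, and at 3 h each share was below 1%. The GC trend was not removed from these changes. The core was in 25 of the 49 other type I genes with a promoter in the table. These are descriptions with no test.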
